A study of Mus musculus with 14 samples.

Results

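Prostanoids are lipid mediators made from arachidonic acid, and the genes described here encode the enzymes that make them and inactivate them. They are Ptgs1 and Ptgs2, the cyclooxygenases; Hpgds, the haematopoietic prostaglandin D synthase; Ptges, Ptges2 and Ptges3, 3 prostaglandin E synthases; Tbxas1, the thromboxane synthase; and Hpgd, the dehydrogenase that inactivates prostaglandins. They were found by the gene name printed in the scanner files, where Hpgds carries its older name Ptgds2. All 8 genes had a probe on the array, 13 probes in all, and 7 of the 8 were bright enough to be among the 16016 genes tested. Hpgd was not well above background on any of the 14 arrays by either of its 2 probes, so no change is given for it.

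The arrays measured RNA of mouse bone marrow-derived mast cells (BMMCs), grown from marrow with IL-3, and of such cells after 96 h of coculture on Swiss 3T3 cells, a mouse fibroblast line, with 100 ng/ml of stem cell factor. After coculture the nonadherent cells were collected, and the labels give the harvest as almost purely Kit+ FcεRIα+. Cells came from mice labelled knockout or wild-type for the group III secreted phospholipase A2 gene, Pla2g3, and both genotypes carry the strain label C57BL/6.129Sv-N3. Cocultured cells from knockout mice filled 3 arrays, cocultured cells from wild-type mice 4, BMMCs from knockout mice 4 and BMMCs from wild-type mice 3. Fibroblasts and stem cell factor were always given together, so their effects cannot be told apart. Whether the arrays of a group stem from different animals or cultures is not in the labels, so each p-value covers only the spread between these samples, which may be technical. Knockout and wild-type below are the words of the labels.

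A cell makes prostanoids in steps. Phospholipases release arachidonic acid from membranes, a cyclooxygenase turns it into prostaglandin H2, and a terminal synthase turns that into prostaglandin D2, prostaglandin E2 or thromboxane A2. Mast cells are known for prostaglandin D2, which haematopoietic prostaglandin D synthase makes. Cyclooxygenase 1 (Ptgs1) is present in many resting cells, while cyclooxygenase 2 (Ptgs2) and the microsomal prostaglandin E synthase Ptges are induced by cytokines and growth factors in many cell types, fibroblasts among them.

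Of the 7 genes tested, Ptgs2, Ptges and Hpgds rose with coculture in both genotypes, so the stretch of DNA before the start of each is shown, together with the single probe that measured Hpgds. The Hpgds probe of 60 bases lies within chr6:65070081-65073609 of mm9, a span longer than the probe itself, so it joins sequence from separate exons. The promoter stretches are the 250 bases before the RefSeq transcript start on GRCm38.p6, written along the strand of the gene. That of Ptgs2 is chr1:150099781-150100030 on the plus strand, that of Ptges is chr2:30903298-30903547 on the minus strand, and that of Hpgds is chr6:65144731-65144980 on the minus strand. Capitals mark matches to short motifs searched on both strands.
Hpgds probe: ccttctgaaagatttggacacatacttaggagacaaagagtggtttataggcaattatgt
Ptgs2 promoter: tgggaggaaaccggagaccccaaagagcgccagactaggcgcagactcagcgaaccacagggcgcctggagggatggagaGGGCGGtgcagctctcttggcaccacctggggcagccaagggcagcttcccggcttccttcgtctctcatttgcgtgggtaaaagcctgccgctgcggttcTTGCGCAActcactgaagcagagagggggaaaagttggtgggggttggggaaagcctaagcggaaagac
Ptges promoter: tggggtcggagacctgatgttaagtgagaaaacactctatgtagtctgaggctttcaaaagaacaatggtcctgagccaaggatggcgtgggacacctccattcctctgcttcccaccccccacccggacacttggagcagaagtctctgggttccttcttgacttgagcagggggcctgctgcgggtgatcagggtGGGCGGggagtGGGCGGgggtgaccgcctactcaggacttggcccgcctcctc
Hpgds promoter: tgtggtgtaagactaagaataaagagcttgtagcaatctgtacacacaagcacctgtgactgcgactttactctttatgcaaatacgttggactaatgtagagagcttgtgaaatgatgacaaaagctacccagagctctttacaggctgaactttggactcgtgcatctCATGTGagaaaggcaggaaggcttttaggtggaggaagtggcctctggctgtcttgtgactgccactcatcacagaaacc

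The 3 stretches hold different motifs. The Ptgs2 stretch has the C/EBP palindrome TTGCGCAA at -69 to -62, counted in bases before the start, which 0.164% of 32841 mouse promoter stretches of this length hold, and a GC box GGGCGG at -170 to -165. The Ptges stretch has 2 copies of the GC box, at -53 to -48 and at -42 to -37, a motif found in 32.7% of the stretches. The Hpgds stretch has the E-box CATGTG at -80 to -75, found in 12.3%. The other motifs searched were the E-box CACGTG (held by 6.02% of the stretches), the core of the cyclic AMP response element TGACG (17.8%), the AP-1 site TGANTCA (6.75%), the GATA site AGATAA (9.99%), the NF-kB site GGGANTTCC (1.43%) and the TATA box TATAAA (12.4%). None of these 6 is in the 3 stretches shown, none of the motifs searched overlaps another, and bases after the transcript start were not searched. A match is a run of letters and is not evidence that a factor binds there.

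A level here is the log2 of the signal divided by that array's own 75th percentile. A gene at 0 is as bright as that percentile, and a difference of 1 is a 2-fold difference. Between 17691 and 23023 of 41174 probes per array, 43.0% to 55.9% of the total, were well above background. Precision is set by the few arrays in each group. All 10 mast cell markers examined, Kit and Fcer1a among them, were well above background on all 14 arrays. Of 27 fibroblast markers, 15 to 25 were above background on knockout cocultured arrays and 17 to 26 on wild-type cocultured arrays, against 4 to 7 on knockout BMMC arrays and 5 to 9 on wild-type BMMC arrays. Col1a1, which encodes a chain of type I collagen made by fibroblasts, stood at -0.01, 1.31 and 3.25 on knockout cocultured arrays 1 to 3, and at 4.42, 6.31, 0.21 and 4.60 on wild-type cocultured arrays 1 to 4. It was not above background on any BMMC array. In such bulk RNA, fewer cells of a type and less RNA per cell cannot be told apart.

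A pair of cocultured arrays, both on slide 4, stood apart from their groups in this signal. The names of the deposited scans give slide 4, which also holds knockout BMMC 4, a later date than the other slides. Knockout cocultured 3 had the highest Col1a1 level of its group and wild-type cocultured 3 the lowest of its group, lower than 2 of the 3 knockout arrays. Pla2g3, the targeted gene, had -3.21, -1.78 and -1.97 on knockout cocultured arrays, and -4.33, -3.25, -4.14 and -2.22 on wild-type cocultured arrays. Its signal was not above background on wild-type cocultured 1 and 3. Pla2g3 had -1.43, -1.31, -1.60 and -1.96 on knockout BMMC arrays, and -3.75, -4.69 and -2.95 on wild-type BMMC arrays, of which 1 and 2 were not above background. Its probe, at chr11:3393221-3393280 on mm9, was thus brighter in BMMCs labelled knockout, without overlap. A separation of the BMMC genotypes was shown by 3.96% of all genes tested, and the Pla2g3 difference did not pass in limma. A brighter knockout signal goes against the labels unless the probe lies outside the deleted part, which the sources used here do not give. The probe therefore checks nothing, and every genotype difference below rests on the labels. On slide 4 the knockout cocultured array had the brighter Pla2g3 signal and the wild-type array the dimmer, which was not above background. Genotype results are given with and without the cocultured arrays of slide 4.

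**Figure D1:**
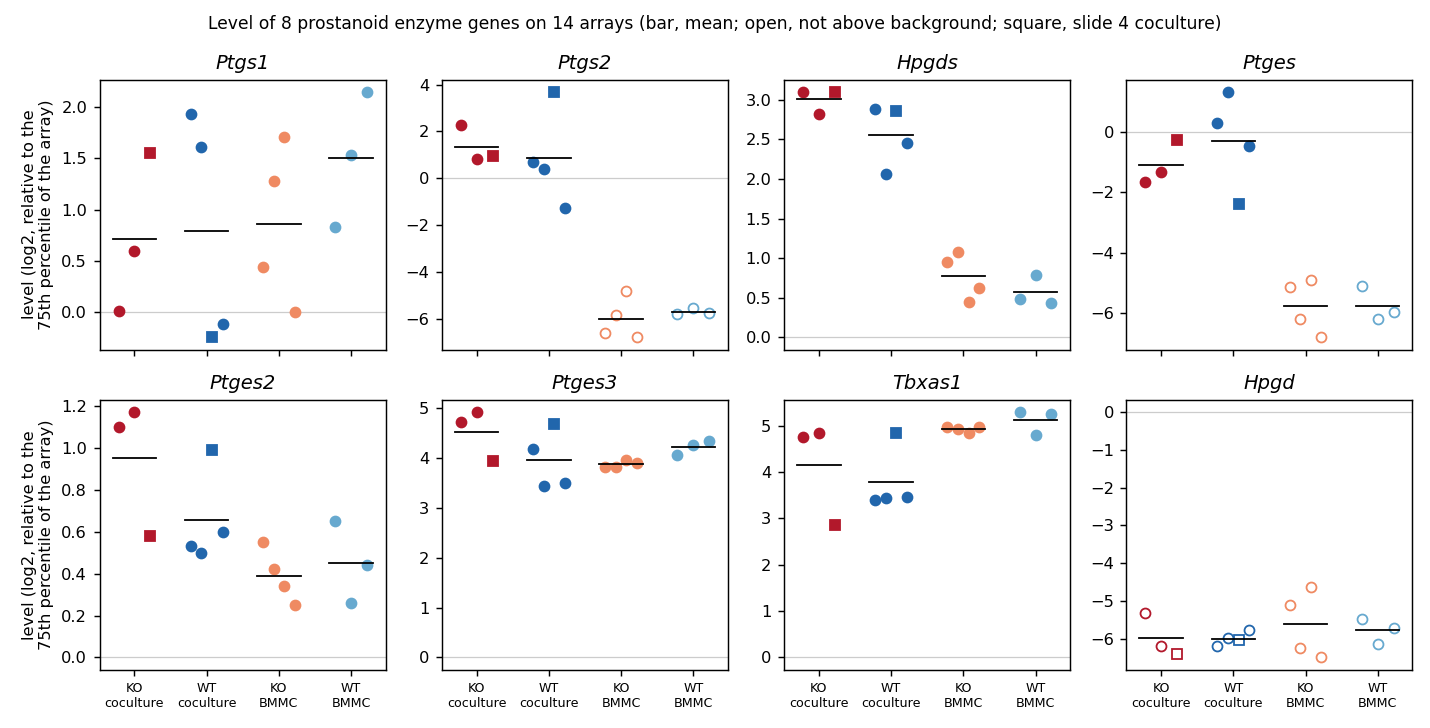
Level of each of the 8 genes on the 14 arrays, by group, as log2 signal relative to the 75th percentile of the array. KO and WT are the labelled genotypes, black bars are group means, open symbols are arrays on which the probe was not well above background, and squares are the cocultured arrays of slide 4. Ptgs2, Ptges and Hpgds were higher on all 7 cocultured arrays than on any BMMC array, whereas Hpgd (the probe shown is 1 of 2) was not above background on any array. Within a genotype, cocultured and BMMC arrays did not overlap for 28.1% of all genes tested in knockout and 25.5% in wild-type cells.

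The cyclooxygenases come first in the pathway, and coculture left them with different changes. Ptgs2, the inducible cyclooxygenase, stood at 2.26, 0.84 and 0.96 on knockout cocultured arrays and at 0.70, 0.39, 3.68 and -1.28 on wild-type cocultured arrays. It was not above background on any of the 7 BMMC arrays, where the measured signals averaged -6.02 ± 0.90 in knockout cells (SD, n = 4) and -5.69 ± 0.14 in wild-type cells (SD, n = 3). Every cocultured array was thus above every BMMC array, with the highest level on wild-type cocultured 3. Of all genes tested, 28.1% had no overlap between cocultured and BMMC arrays in knockout cells and 25.5% in wild-type cells. Signal was at least 40.4-fold higher with coculture in knockout cells and at least 29.9-fold higher in wild-type cells. The limma test used the measured signals, not these bounds, and passed (adjusted p = 0.000272 in knockout and 0.000454 in wild-type cells). Ptgs2 was tested only because of its cocultured signal, so these p-values do not bear on the bounds. These bounds set cocultured means against the dimmest signal that the scanner software calls well above background on the BMMC arrays, since no level was measured there. The wild-type bound was 15.6-fold without wild-type cocultured 3 and 49.3-fold without wild-type cocultured 4. With normexp background correction the measured log2 change was smaller, below these bounds. It still passed, at 2.48 in knockout cells and 2.25 in wild-type cells (limma, adjusted p = 0.0215 and 0.0375). With the authors' normalized values it did not pass, at 3.82 in knockout cells and 3.22 in wild-type cells (limma, adjusted p = 0.0581 and 0.0943).

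The Ptgs2 probe used in the tests, A_52_P224760, is the brighter of 2. The other, A_51_P254855, is printed as 10 spots on each array and gave 1.66, 0.41 and 0.06 on knockout cocultured arrays and 0.02, -0.35, 2.93 and -2.06 on wild-type cocultured arrays. Both probes ranked wild-type cocultured 3 highest and wild-type cocultured 4 lowest of the 7. The spread of Ptgs2 between wild-type cocultured arrays was an SD of 2.07 by either probe.

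Ptgs1, the constitutive cyclooxygenase, was above background on all 14 arrays. It stood at 0.01, 0.59 and 1.55 on knockout cocultured arrays and at 1.93, 1.61, -0.25 and -0.12 on wild-type cocultured arrays, against 0.44, 1.28, 1.71 and 0.00 on knockout BMMC arrays and 0.83, 1.53 and 2.15 on wild-type BMMC arrays. The groups overlapped throughout. The difference between cocultured cells and BMMCs was -0.14 in knockout cells (95% interval -1.48 to 1.19, limma, adjusted p = 0.908) and -0.71 in wild-type cells (95% interval -2.05 to 0.62, limma, adjusted p = 0.529). These intervals leave room for changes of more than 2-fold in either genotype.

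Of the terminal synthases, Hpgds, the source of prostaglandin D2 in mast cells, rose in both genotypes. It stood at 3.10, 2.82 and 3.10 on knockout cocultured arrays and at 2.88, 2.06, 2.86 and 2.45 on wild-type cocultured arrays. On knockout BMMC arrays it stood at 0.95, 1.08, 0.45 and 0.62, and on wild-type BMMC arrays at 0.48, 0.79 and 0.43. The lowest cocultured array was about a full log2 unit above the highest BMMC array. Cocultured and BMMC groups did not overlap for 28.1% of all genes in knockout cells and 25.5% in wild-type cells, in either direction. Hpgds rose by 2.23 ± 0.26 (SE) in knockout cells, a 4.70-fold difference (limma, adjusted p = 0.000219), and by 2.0 ± 0.26 (SE) in wild-type cells, a 3.99-fold difference (limma, adjusted p = 0.000343). With normexp the log2 rise in knockout cells was 1.56, and with the authors' normalized values it was 2.89 in knockout cells and 3.82 in wild-type cells, all passing (limma, adjusted p = 0.00521, 0.0015 and 0.000144). Unlike Ptgs2 and Ptges, Hpgds was above background on every BMMC array.

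Ptges stood at -1.66, -1.33 and -0.27 on knockout cocultured arrays and at 0.30, 1.33, -2.39 and -0.45 on wild-type cocultured arrays, and was not above background on any BMMC array. Its level was highest on wild-type cocultured 2 and lowest on wild-type cocultured 3, the array on which Ptgs2 was highest. Signal was at least 7.44-fold higher with coculture in knockout cells and at least 13.3-fold higher in wild-type cells. Here too the limma test used the measured signals, not the bounds, and passed (adjusted p = 0.00169 in knockout and 0.000503 in wild-type cells). Ptges was likewise tested only because of its cocultured signal. The wild-type bound was 21.5-fold without wild-type cocultured 3. With normexp background correction the call was lost in both genotypes, with log2 changes of 1.28 (adjusted p = 0.0648) in knockout cells and 1.27 (adjusted p = 0.0688) in wild-type cells.

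Ptges2, a second microsomal prostaglandin E synthase, stood at 1.1, 1.17 and 0.58 on knockout cocultured arrays and at 0.53, 0.50, 0.99 and 0.60 on wild-type cocultured arrays. It averaged 0.39 ± 0.13 in knockout BMMCs (SD, n = 4) and 0.45 ± 0.20 in wild-type BMMCs (SD, n = 3). All 3 knockout cocultured arrays lay above all 4 knockout BMMC arrays, a separation that 28.1% of all genes tested showed in the same comparison, and the wild-type groups overlapped. The change with coculture, 0.56 ± 0.22 (SE) in knockout cells and 0.20 ± 0.22 (SE) in wild-type cells, did not pass (limma, adjusted p = 0.118 and 0.638).

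Ptges3 encodes the cytosolic prostaglandin E synthase, also known as p23, a cochaperone of Hsp90. It was bright everywhere, at 4.71, 4.91 and 3.93 on knockout cocultured arrays and at 4.17, 3.43, 4.67 and 3.50 on wild-type cocultured arrays. It averaged 3.88 ± 0.07 in knockout BMMCs (SD, n = 4) and 4.22 ± 0.14 in wild-type BMMCs (SD, n = 3). The 7 BMMC arrays lay within 3.82 to 4.33, while the cocultured arrays spread from 3.43 to 4.91. The change was 0.64 ± 0.32 (SE) in knockout cells and -0.27 ± 0.32 (SE) in wild-type cells, and neither passed (limma, adjusted p = 0.203 and 0.662).

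On the cocultured arrays Tbxas1, the thromboxane synthase, fell into a high set and a low set. The high set held knockout cocultured 1 and 2 (4.76 and 4.83) and wild-type cocultured 3 (4.84), and the low set held knockout cocultured 3 (2.85) and wild-type cocultured 1, 2 and 4 (3.39, 3.43 and 3.47). It varied little between BMMC arrays, at 4.97, 4.92, 4.85 and 4.96 in knockout cells and 5.29, 4.80 and 5.26 in wild-type cells.

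The change of Tbxas1 with coculture, -0.78 ± 0.47 (SE) in knockout cells and -1.33 ± 0.47 (SE) in wild-type cells, did not pass (limma, adjusted p = 0.292 and 0.0804). In knockout cells the change was -0.13 without knockout cocultured 3 (adjusted p = 0.842), and -1.26 with normexp, which passed (adjusted p = 0.0404). In wild-type cells it passed with quantile normalization of all 14 arrays (-1.34, adjusted p = 0.0372), and also when arrays of slide 4 were left out. Without both of them the wild-type change was -1.68 (adjusted p = 0.000102, where 23.6% of all genes passed), without wild-type cocultured 3 alone -1.68 (adjusted p = 0.0194), and without knockout cocultured 3 alone -1.33 (adjusted p = 0.0161). A second probe, A_51_P448671, changed by -0.68 in knockout cells and -1.31 in wild-type cells (limma, adjusted p = 0.382 and 0.103), while its remaining probe was above background on 1 of the 14 arrays. Markers of 2 other lineages known to make thromboxane were present on all arrays. The mean of the macrophage markers ran from -1.92 to -1.52 on knockout cocultured arrays and from -1.66 to -0.79 on wild-type cocultured arrays, against -2.57 to -1.68 on knockout BMMC arrays and -2.95 to -1.0 on wild-type BMMC arrays. The mean of the megakaryocyte and platelet markers ran from 0.06 to 0.59 and from 0.26 to 1.25 on the same cocultured groups, against -0.24 to 0.75 and -0.30 to 1.14 on the BMMC groups. Within these lists some genes changed with coculture. Of 9 tested macrophage markers, Cd14 rose by 2.51 in knockout cells and 4.04 in wild-type cells and Cd68 by 2.95 and 2.69 (limma, adjusted p = 0.0177, 0.00104, 0.0249 and 0.0379), while Fcgr1 fell by 3.97 in wild-type cells (adjusted p = 0.00627). Of 6 tested megakaryocyte and platelet markers, Gp1ba fell by 1.28 in knockout cells (limma, adjusted p = 0.0134). Their part in the Tbxas1 signal was not tested.

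**Figure D2:**
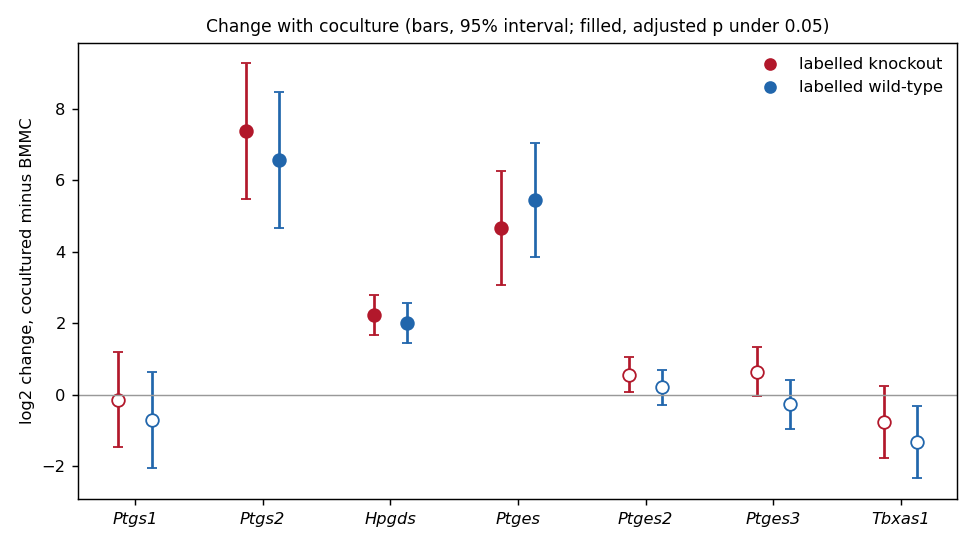
Log2 change of the 7 tested genes, cocultured cells minus BMMCs, in cells labelled knockout (red) and wild-type (blue). Points are limma estimates, bars their 95% intervals, and filled points passed at an adjusted p under 0.05. Hpgds, Ptges and Ptgs2 passed in both genotypes, and the 4 other genes in neither. For Ptgs2 and Ptges the point uses BMMC signals that were not above background, so the text gives a lower bound of the fold.

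In all, 3 of the 7 genes rose with coculture in knockout cells, 0 fell and 4 did not pass, where 14.3% of all genes tested passed, 7.77% upward and 6.49% downward. In wild-type cells the counts were again 3, 0 and 4, where 12.9% of all genes passed, 6.02% upward and 6.87% downward. The same 3 genes passed in both genotypes. The 2 comparisons share no sample, but they come from the same fit, with the same estimate of the spread, and share slides. Ptgs2 and Ptges were among the tested genes only through their cocultured signal, so they had to be higher there, and the count of 3 is no evidence about the family as a whole. Of the 5 members above background on BMMC arrays, 1, Hpgds, passed in each genotype. Hpgds passed in all 14 fits that left out 1 array, in both genotypes. So did Ptges and Ptgs2, for which this adds no support, since the same filter let them in. Without the slide 4 pair Ptges2 (0.74, adjusted p = 0.0105) and Ptges3 (0.93, adjusted p = 0.0114) also passed in knockout cells, 5 of 7 genes in all, where 30.9% of all genes passed.

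The arrays fill 4 slides, and each comparison was also read within slides. Hpgds was 2.15, 1.74 and 2.49 higher in the cocultured array than in the BMMC array of knockout cells on slides 1, 2 and 4, and 2.09 and 1.82 higher in wild-type cells on slides 2 and 3. Ptgs2 and Ptges have no such difference in size, because their BMMC signals were below background. On each of these slides their cocultured arrays were above background and their BMMC arrays were not.

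The cocultured levels were next set against Col1a1 on the same array, as a measure of fibroblast RNA. Ptges followed it closely. Going up the 7 cocultured arrays in order of Col1a1, from knockout cocultured 1 through wild-type cocultured 3, knockout cocultured 2, knockout cocultured 3, wild-type cocultured 1 and wild-type cocultured 4 to wild-type cocultured 2, Ptges stood at -1.66, -2.39, -1.33, -0.27, 0.30, -0.45 and 1.33. Pearson's r was 0.95 (n = 7, two-sided exact permutation p = 0.00397, 0.0198 after adjustment over the 5 genes tested) and Spearman's rho 0.86 (exact permutation p = 0.0238, adjusted 0.0397). Without the 2 arrays farthest from the median of Col1a1, knockout cocultured 1 and wild-type cocultured 2, r was 0.93. Each log2 unit of Col1a1 went with 0.49 log2 units of Ptges, so Ptges varied less between arrays (SD 1.26) than Col1a1 did (SD 2.42).

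Ptgs2 did not share that pattern. In the same order of arrays it stood at 2.26, 3.68, 0.84, 0.96, 0.70, -1.28 and 0.39, so that the arrays with least Col1a1 had most Ptgs2. Pearson's r was -0.76 (n = 7, exact permutation p = 0.0369, adjusted 0.0615) and rho -0.89 (exact permutation p = 0.0123, adjusted 0.0397), and r was -0.83 without the 2 farthest arrays. The Pearson relation thus missed the threshold after adjustment, and the rank relation passed it.

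Hpgds, at 3.10, 2.86, 2.82, 3.10, 2.88, 2.45 and 2.06 in that order, varied little, with an SD of 0.38 over the 7 arrays. Its r with Col1a1 was -0.73 (n = 7, exact permutation p = 0.0579, adjusted 0.0724), and -0.30 without the 2 farthest arrays, so what relation there was rested on those arrays. Ptges3 was lower where Col1a1 was higher, with r of -0.90 (n = 7, exact permutation p = 0.0159, adjusted 0.0397), rho of -0.86 (exact permutation p = 0.0238, adjusted 0.0397), and r of -0.84 without the 2 farthest arrays. Ptgs1 had r of 0.65 (n = 7, exact permutation p = 0.128, adjusted 0.128) and rho of 0.50 (exact permutation p = 0.267, adjusted 0.267).

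For Tbxas1 and Ptges2 no r is given, because their levels fell into 2 separate sets. The 3 cocultured arrays with the least Col1a1, at -0.01, 0.21 and 1.31, were those with the highest Tbxas1 (4.76, 4.84 and 4.83) and the highest Ptges2 (1.1, 0.99 and 1.17). The other 4 arrays, with Col1a1 at 3.25 to 6.31, had Tbxas1 at 2.85 to 3.47 and Ptges2 at 0.50 to 0.60. Neither set was of 1 genotype, since wild-type cocultured 3 was in the first and knockout cocultured 3 in the second.

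Slides 2, 3 and 4 each hold a pair of cocultured arrays that differ in Col1a1, by 3.11 on slide 2, 1.71 on slide 3 and 3.04 on slide 4. The array with more Col1a1 had more Ptges on all 3 slides, by 1.63, 1.78 and 2.12, and more Ptgs1 on all 3, by 1.34, 1.72 and 1.81. It had less Tbxas1, Ptges2 and Ptges3 on slides 2 and 4, and on slide 3 these were nearly equal. The differences on slides 2, 3 and 4 were -1.44, -0.04 and -1.99 for Tbxas1, -0.63, -0.10 and -0.41 for Ptges2, and -0.73, -0.06 and -0.73 for Ptges3. The slide 3 pair is of wild-type arrays only, while the pairs on slides 2 and 4 also differ in genotype. For Ptgs2 the differences were -0.14, 1.67 and -2.72, so its inverse relation to Col1a1 held on slides 2 and 4 and not on slide 3. With the mean of the 26 tested fibroblast markers in place of Col1a1, r was 0.96 for Ptges, -0.91 for Ptges3 and -0.72 for Ptgs2.

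**Figure D3:**
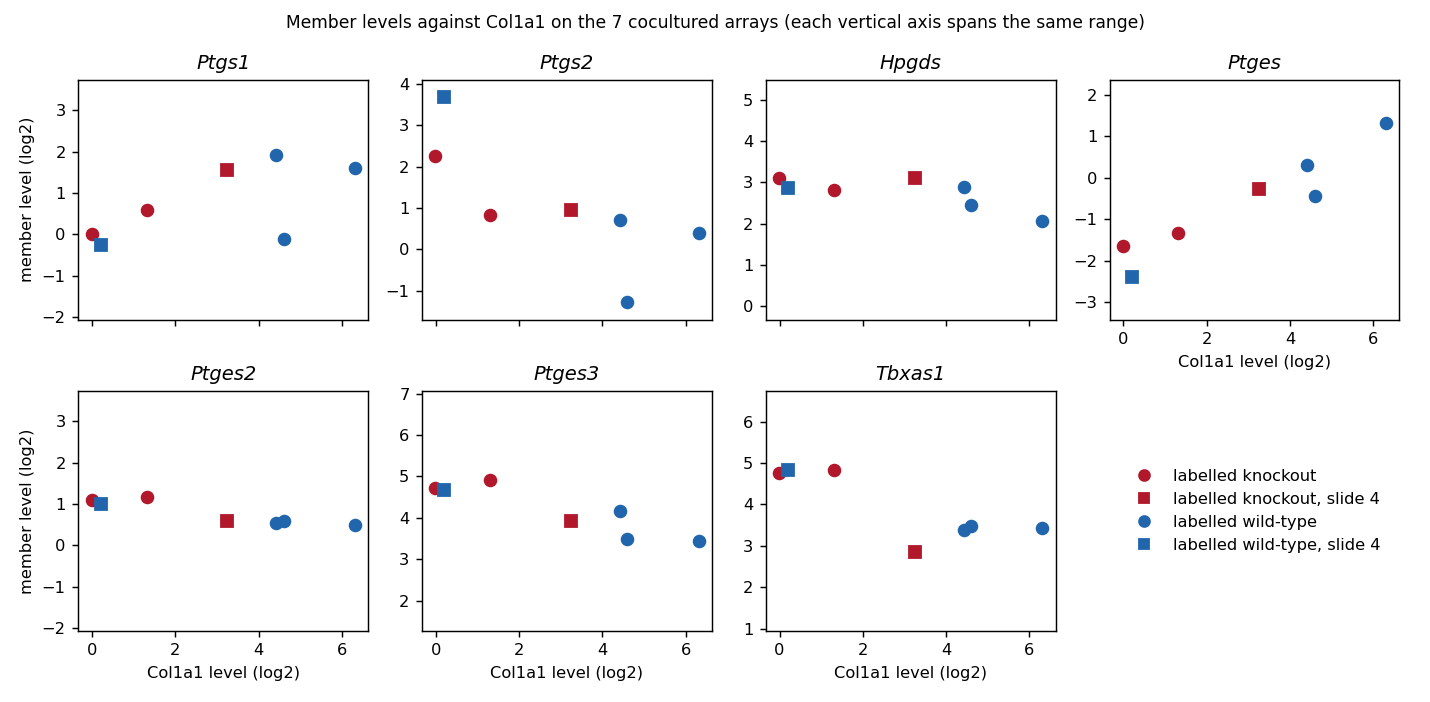
Level of each of the 7 tested genes (vertical, log2) against the level of Col1a1 (horizontal, log2) on the 7 cocultured arrays, with knockout arrays in red, wild-type arrays in blue and those of slide 4 as squares. Every vertical axis spans the same range. Ptges climbs with Col1a1 (r = 0.95), Hpgds stays within 2.06 to 3.10, and Tbxas1 falls into 3 high and 4 low arrays.

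In cocultured cells the genotypes were compared with all 7 arrays. None of the 7 genes passed, nor did any of the 16016 genes tested (0%), although 608 of them had an unadjusted p under 0.05 in limma. The difference of knockout minus wild-type was 0.45 ± 0.26 (SE) for Hpgds, 0.48 ± 0.88 for Ptgs2 and -0.79 ± 0.74 for Ptges (limma, adjusted p = 0.796, 0.891 and 0.807). It was 0.36 ± 0.47 (SE) for Tbxas1, 0.57 ± 0.32 for Ptges3, 0.29 ± 0.22 for Ptges2 and -0.08 ± 0.62 for Ptgs1 (limma, adjusted p = 0.840, 0.796, 0.796 and 0.978). The 95% interval for Hpgds, -0.11 to 1.0, reaches from about no difference to a 2-fold higher level in knockout cells, and that for Ptgs2, -1.42 to 2.38, is too wide to tell a rise from a fall.

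Without the cocultured arrays of slide 4 the picture changed. Tbxas1 then had 4.76 and 4.83 in knockout cocultured cells, against 3.39, 3.43 and 3.47 in wild-type cocultured cells, a difference of 1.36 (limma, adjusted p = 0.00192). Ptges3 had 4.71 and 4.91 against 4.17, 3.43 and 3.50, a difference of 1.11 (adjusted p = 0.00915), and Ptges2 had 1.1 and 1.17 against 0.53, 0.50 and 0.60, a difference of 0.59 (adjusted p = 0.0414). The others did not pass. Their differences were -1.89 for Ptges (adjusted p = 0.0505), 1.61 for Ptgs2 (0.111), 0.50 for Hpgds (0.216) and -0.84 for Ptgs1 (0.373). The 3 of 7 genes that passed stand beside 25.3% of all genes without the pair. Col1a1 moved with them, at -0.01 and 1.31 in the 2 knockout arrays and at 4.42 to 6.31 in the 3 wild-type arrays, so genotype and Col1a1 cannot be told apart in these 5 arrays.

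On slide 4 itself, where a knockout and a wild-type cocultured array sit side by side, the direction was the opposite. Knockout minus wild-type was -1.99 for Tbxas1, -0.73 for Ptges3 and -0.41 for Ptges2, against 1.44, 0.73 and 0.63 on slide 2. Col1a1 was 3.04 higher in the knockout array on slide 4 and 3.11 lower in the knockout array on slide 2. With the level of Col1a1 as a covariate and all 7 arrays, the difference was -0.42 ± 0.46 (SE) for Tbxas1, 0.07 ± 0.35 for Ptges3 and 0.05 ± 0.30 for Ptges2, and 0 of the 7 genes passed (limma, adjusted p of 1 for each). With the covariate and without slide 4 it was 1.44 ± 0.76 (SE), 0.50 ± 1.02 and 0.54 ± 0.76, and again 0 passed (limma, adjusted p = 0.937, 0.985 and 0.975), a fit chosen after seeing the data.

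**Figure D4:**
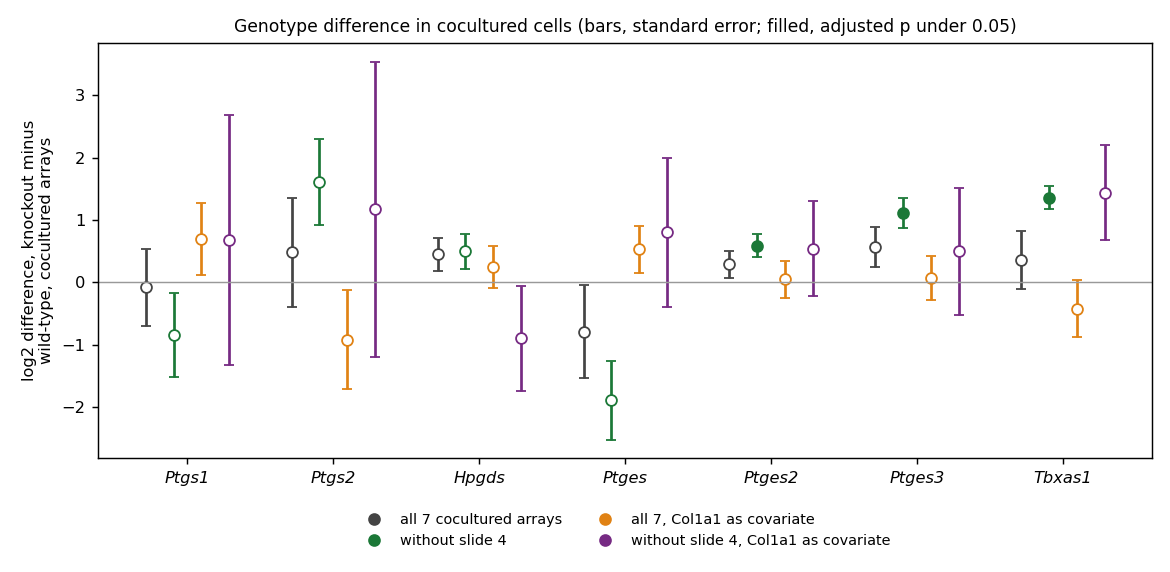
Log2 difference of knockout minus wild-type cocultured cells for the 7 tested genes under 4 fits, with all 7 arrays or without the pair on slide 4, and with or without the level of Col1a1 as a covariate. Points are limma estimates, bars standard errors, and filled points passed at an adjusted p under 0.05. Ptges2, Ptges3 and Tbxas1 passed without slide 4 and without the covariate, and in no other fit shown.

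Before coculture no member passed between genotypes. In BMMCs knockout minus wild-type was 0.21 ± 0.26 (SE) for Hpgds, -0.19 ± 0.47 for Tbxas1, -0.34 ± 0.32 for Ptges3, -0.06 ± 0.22 for Ptges2 and -0.64 ± 0.62 for Ptgs1, with an adjusted p of 1 for each in limma. None of the 16016 genes passed (0%), and 170 had an unadjusted p under 0.05. Ptges3 was the only member whose BMMC groups did not overlap, at 3.82 to 3.96 in knockout and 4.06 to 4.33 in wild-type BMMCs, a separation shown by 3.96% of all genes. Ptgs2 and Ptges were below background in both genotypes. The BMMC arrays of equal number share slides 1 to 3, where knockout minus wild-type was -0.24, -0.44 and -0.37 for Ptges3, -0.38, -0.25 and -0.44 for Ptgs1 and 0.47, 0.29 and 0.03 for Hpgds. Each of these had 1 sign on all 3 slides, while Tbxas1 (-0.33, 0.12 and -0.41) and Ptges2 (-0.10, 0.16 and -0.10) did not. With the replicate number as a block over all arrays, the difference was -0.27 for Ptges3, -0.35 for Ptgs1 and 0.25 for Hpgds. In that fit 0 of the 7 genes passed (limma, adjusted p of 1 for each). The block also tied cocultured arrays of equal number, which did not deviate together, so it is no paired test of the BMMC arrays. A test of the BMMC pairs alone was not run.

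The test of whether the response to coculture differed between genotypes gave 0 of the 7 genes and 0 of all genes (0%), with 131 genes at an unadjusted p under 0.05. The difference of responses, knockout minus wild-type, was 0.91 ± 0.45 (SE) for Ptges3, 0.24 ± 0.36 for Hpgds, 0.57 ± 0.87 for Ptgs1, 0.35 ± 0.32 for Ptges2 and 0.56 ± 0.66 for Tbxas1, with an adjusted p of 0.994 for each in limma. For Ptgs2 and Ptges no difference of responses is read from the fit, since their BMMC signals were below background. Without the slide 4 pair, Tbxas1 (1.56, adjusted p = 0.00798) and Ptges3 (1.45, adjusted p = 0.018) passed, beside 12.7% of all genes.

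The genes whose levels were most like each member over the 14 arrays were named by Pearson's r, given as a description since the arrays share groups and slides. For Ptgs2 and Ptges the 7 BMMC signals in this r were below background. Ptges was most like Ltbp2 (0.991), Ackr3 (0.989) and Osmr (0.989), of which Ltbp2 encodes a protein of the extracellular matrix and Osmr the oncostatin M receptor. Within groups, by deviations from group means over the same 14 arrays, Ptges was most like Ltbp2 (0.946), Fbln1 (0.945), which encodes another matrix protein, and Cubn (0.94). The deviations on the 7 BMMC arrays were again of Ptges signals below background, so this r does not rest on measured levels alone. Ptgs2 was most like S100a11 (0.979), Srxn1 (0.978) and Mdm2 (0.978), and Hpgds like Lasp1 (0.986), Cln8 (0.985) and Rnh1 (0.979). Tbxas1 was most like Eri1 (0.977), Tdrd3 (0.972) and Bcl2l2 (0.969), Ptges3 like Topors (0.952), Ptges2 like Fis1 (0.962) and Ptgs1, less closely, like Ssh1 (0.817).

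Among the members, deviations from group means were compared over the 7 cocultured arrays, where all 7 tested genes were above background, again as a description. They ran together for Ptges2 and Tbxas1 (r = 0.99), Ptges2 and Ptges3 (r = 0.86) and Ptges3 and Tbxas1 (r = 0.85). Those of Ptges ran against those of Ptges3 and Tbxas1 (r = -0.78 for each) and with those of Ptgs1 (r = 0.83). Ptgs2 and Ptges deviated apart (r = -0.66), and Hpgds and Tbxas1 were nearly unrelated (r = 0.15). Levels of Tbxas1 and Ptges2 fell into 2 sets on these arrays, with knockout cocultured 3 and wild-type cocultured 3 each apart from its group. An r that holds either gene therefore rests largely on that slide 4 pair.

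Genes around these enzymes in the pathway were followed by lists, whose counts stand beside the 14.3% of all genes that passed in knockout cells and the 12.9% in wild-type cells. Of 12 tested genes for other prostanoid enzymes and transporters, 2 rose and 0 fell in each genotype, or 16.7%, a share near that of all genes. They were the aldo-keto reductase gene Akr1b8, by 1.89 ± 0.37 (SE) in knockout and 2.10 ± 0.37 in wild-type cells (limma, adjusted p = 0.00594 and 0.00285), and the glutathione S-transferase gene Gstm2, by 3.04 ± 0.72 and 3.51 ± 0.72 (adjusted p = 0.0151 and 0.00649). Of 6 tested prostanoid receptors, 1 rose and 2 fell in knockout cells, and 1 rose and 1 fell in wild-type cells, shares of 50% and 33.3% of a list of only 6 genes. Ptger3, a receptor for prostaglandin E2, fell by 1.59 in knockout cells and by 1.80 in wild-type cells (limma, adjusted p = 0.0316 and 0.0175). In knockout cells Ptger4, another, fell by 2.32 and the prostacyclin receptor Ptgir rose by 2.06 (limma, adjusted p = 0.00455 and 0.0106). In wild-type cells the signal of Ptgfr, the prostaglandin F receptor, was higher by at least 2.29-fold. Its limma test, on the measured signals and not on that bound, passed (adjusted p = 0.00617). In wild-type cells Ptgfr was above background on 3 cocultured arrays and on 0 BMMC arrays. Its cocultured signal thus let it into the tests, and neither this p-value nor its place in the count of receptors adds support. The difference of responses between genotypes did not pass for Ptger4 (-1.31 ± 0.62 SE, limma, adjusted p = 0.994) or Ptgfr. For Ptgfr no size is given, since its wild-type BMMC signals were below background.

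Upstream, of 9 tested genes for the release of arachidonic acid, 1 rose and 2 fell in knockout cells, and 0 rose and 2 fell in wild-type cells, or 33.3% and 22.2%, against 14.3% and 12.9% of all genes. Mgll, which encodes monoacylglycerol lipase, fell by 4.16 in knockout cells and by 3.98 in wild-type cells (limma, adjusted p = 8.99e-05 and 9.2e-05), with 1 of 3 knockout cocultured arrays above background, and the lysosomal phospholipase gene Pla2g15 fell by 2.04 in knockout cells and by 2.58 in wild-type cells (adjusted p = 0.0433 and 0.0156). Acsl4, an acyl-CoA synthetase with a preference for arachidonic acid, rose by 1.40 ± 0.32 (SE) in knockout cells (limma, adjusted p = 0.014). Of 6 tested genes that turn arachidonic acid into leukotrienes and related lipids, Ltc4s, the leukotriene C4 synthase, fell by 1.88 in wild-type cells (limma, adjusted p = 0.0296), and none passed in knockout cells.

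Of 20 NF-kB targets and immediate early genes, a group to which Ptgs2 belongs in many cells, 7 rose and 1 fell in knockout cells, and 6 rose and 0 fell in wild-type cells. Over all genes 7.77% rose and 6.49% fell in knockout cells, and 6.02% rose and 6.87% fell in wild-type cells. Tnf rose by 4.68 ± 0.56 (SE) and 3.63 ± 0.56, and Nfkbia, the inhibitor of NF-kB, by 3.64 ± 0.57 and 3.56 ± 0.57, in knockout and in wild-type cells (limma, adjusted p = 0.000293 and 0.00129 for Tnf, 0.00153 and 0.00151 for Nfkbia). Of 12 genes of the Hsp90 machinery, with which Ptges3 works, only Fkbp4 passed, 8.33% of the list, falling by 0.96 in knockout and by 1.18 in wild-type cells (limma, adjusted p = 0.0333 and 0.0123). Median log2 changes in knockout and wild-type cells were 0.70 and 0.59 for the other prostanoid enzymes, 0.24 and -0.12 for the receptors, and -0.25 and -0.05 for arachidonic acid release. They were -0.41 and -0.57 for the leukotriene genes, 0.95 and 0.91 for the NF-kB list and 0.43 and -0.07 for the Hsp90 list. Fibroblast markers, of which 12 of 26 rose in knockout and 20 of 26 in wild-type cells, changed in the same comparisons. Only 4 to 7 of 27 were above background on knockout BMMC arrays and 5 to 9 on wild-type ones. Many were thus tested only through their cocultured signal and had to be higher there, so these counts are no test of a rise. The part of fibroblast RNA in the changes of the lists was not tested.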

How the data were processed

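RNA of 14 mouse samples was hybridised to single-colour Agilent arrays. The deposited scanner files hold an intensity per spot, which the authors read out with Agilent Feature Extraction 9.5.1.1 per the submitters' processing notes. Spatial and multiplicative detrending were on, per the file headers. The authors also deposited an annotated table, whose raw intensity columns equal the scanner values within 1 unit and whose normalized intensity columns equal these minus a constant per array of 67 to 172.

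Signals, which the authors deposited on a linear scale, were turned into log2 values here, and the 75th percentile of each array (69.4 to 176 units) was subtracted. Control spots and outlier spots (74 to 326 per array) were left out, spots of a probe were averaged, and a probe entered when it was well above background on 3 or more arrays (23625 of 41174, of which 32 lacked values in a group). The brightest probe stood for each gene. Positions are the files' mm9 positions.

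The 4 groups were fitted together with limma 3.58.1 in R 4.3.3, tested on simulated data, with 5 contrasts and two-sided p adjusted by Benjamini-Hochberg over 16016 genes. "Rose", "fell" and "passed" mean an adjusted p under 0.05. Correlations used scipy. Alternatives covered background correction, scaling, filter, probe choice, the authors' values, slide, replicate block, Col1a1 as a covariate and left-out arrays.

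The members and gene lists were chosen with earlier results of these data known. All 8 members, Col1a1 and Pla2g3 were named, with up to 4 passing genes of a list by adjusted p, or 2 where none passed, and the 3 genes most alike to each member, fewer of which are printed. Knockout and wild-type BMMC arrays of equal number shared a slide and deviated together (r = 0.197, 0.499 and 0.489), and were read as pairs. Cocultured arrays of equal number did not deviate together (r = -0.434, -0.151 and -0.548), and only those numbered 3 shared a slide. Promoter stretches are from RefSeq, build GRCm38.p6, matched by symbol for all 8 members.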

Additional observations from a re-analysis of the deposited data

Results flagged for a closer look

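Of 15 sets of 4 arrays examined, the wild-type cocultured and knockout BMMC groups for each gene with signal above background, 1 held an array set apart from the other 3, where chance gives about 1 in 20. Tbxas1 stood at 4.84 on wild-type cocultured 3, with the nearest of the other wild-type cocultured arrays at 3.47 and the farthest at 3.39. That gap is 0.946 of the range of the group, above Dixon's critical value for a group of 4. The same array had the lowest Col1a1 of its group, at 0.21, and the part of fibroblast RNA in the value was not tested.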

How the results depend on the processing

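The rises of Hpgds, Ptges and Ptgs2 with coculture passed in both genotypes under every alternative run but those named here. Ptges lost its call with normexp (1.28 in knockout and 1.27 in wild-type cells), and Ptgs2 with the authors' normalized values (3.82, adjusted p = 0.0581, in knockout and 3.22, adjusted p = 0.0943, in wild-type cells), where 1 member passed in each genotype and Ptges gave no value because it exceeded the floor of 10 on too few arrays. Without the cocultured arrays of slide 4, 5 members passed with coculture in knockout cells, 3 between genotypes in cocultured cells and 2 in the interaction. In knockout cells the 2 gained were Ptges2 (0.74, adjusted p = 0.0105) and Ptges3 (0.93, adjusted p = 0.0114). Tbxas1 also passed with quantile normalization in wild-type cells (-1.34, adjusted p = 0.0372) and with normexp in knockout cells (-1.26, adjusted p = 0.0404), and Ptges2 passed in knockout cells without knockout cocultured 3 (0.74, adjusted p = 0.0352).

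Sign changes were all among differences that passed neither way, and their cause was not tested. For knockout against wild-type cocultured cells, normexp gave -0.04 for Hpgds, -0.01 for Ptges2, -0.06 for Ptges3 and -0.22 for Tbxas1, median scaling gave 0.18 and the slide block 0.39 for Ptgs1, and the authors' values gave -0.06 for Tbxas1. The Col1a1 covariate gave 0.53 for Ptges, 0.70 for Ptgs1, -0.92 for Ptgs2 and -0.42 for Tbxas1, and the fibroblast list mean as covariate 0.54, 0.70, -0.85 and -0.43. The Col1a1 covariate without slide 4 gave -0.90 for Hpgds, 0.80 for Ptges and 0.68 for Ptgs1. In BMMCs, normexp gave 0.00 for Ptges2, and the authors' values gave 0.29 for Ptges2, 0.17 for Ptges3 and 0.33 for Tbxas1. For the interaction, normexp gave -0.23 for Hpgds, 0.01 for Ptges, -0.01 for Ptges2 and -0.11 for Tbxas1. The Ptges value rests on BMMC signals below background, so neither its size nor its sign measures a difference of responses. Also for the interaction, the authors' values gave -0.93 for Hpgds, -0.10 for Ptges2 and -0.38 for Tbxas1, and leaving out slide 4 gave -0.20 for Ptgs1. For coculture, the authors' values gave 0.20 for Ptges3 in wild-type cells, and the slide block 0.03 for Ptgs1 in knockout cells.

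With the replicate number as a block (the replicate block), the counts of members that passed were unchanged at 3, 3, 0, 0 and 0. With the replicate block, signs turned for Ptgs2 (-0.01) between cocultured genotypes and for Ptgs1 (-0.02) and Ptgs2 (-0.17) in the interaction. The Ptgs2 interaction value rests on BMMC signals below background, so neither its size nor its sign measures a difference of responses. Leaving out 1 array at a time, the difference between cocultured genotypes ran from -0.49 to 0.30 for Ptgs1 and from -0.24 to 1.42 for Ptgs2, the BMMC difference of Ptges2 from -0.16 to 0.04, and the change of Ptgs1 with coculture in knockout cells from -0.56 to 0.21. Ptgs2 and Ptges in BMMCs, and Hpgd throughout, had no signal above background, so no change could be measured there.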
